A study of Caenorhabditis elegans with 4 samples.

Results

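Glutathione transferases and UDP-glucuronosyl transferases are the main conjugating enzymes of detoxification, and their genes form large families in C. elegans. Members were the rows of the deposited gene table whose locus name is gst or ugt followed by a number. These numbered 110 of 46934 gene rows, 44 gst genes and 66 ugt genes, and the rule used no measured value. All 110 members had at least 1 count in at least 1 library, and 39 gst genes and 64 ugt genes had enough counts to receive an adjusted p-value.

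A glutathione transferase joins the tripeptide glutathione to an electrophilic compound, such as a drug, a pesticide or an aldehyde formed when lipids oxidise. A UDP-glucuronosyl transferase joins a sugar from a UDP-sugar donor to a small molecule, and in nematodes the donor is often UDP-glucose. Both reactions make the compound more soluble, and efflux pumps then carry the conjugate out of the cell. In worms much of this takes place in the intestine, and the transcription factor SKN-1 is the best known activator of gst genes.

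RNA of whole synchronized adults was sequenced in 4 libraries, 2 from a control and 2 from a null mutant of eggd-1, whose protein keeps germ granules attached to germ cell nuclei. The control carries the label pgl-1::RFP, a germ granule protein with a red fluorescent tag, and the label of the mutant does not say whether it carries the tag too, so a difference due to the tag cannot be told apart from one due to eggd-1. Both groups were grown from synchronized first-stage larvae to adulthood on OP50 bacteria, and each library pools a large number of animals. The titles call the libraries sequencing replicates whereas the methods call them biological replicates, so p-values may measure only technical spread.

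Totals ranged from 17603513 to 30812591 counts per library, and the eggd-1 gene itself (listed as mip-1) fell from 2074 and 3177 counts (control replicates 1 and 2) to 6 and 3 counts (eggd-1 replicates 1 and 2). Members took a small part of the counts, between 0.0426% and 0.0624% for gst genes and between 0.0954% and 0.129% for ugt genes. In whole animals, a change in RNA per cell and a change in the share of a tissue cannot be told apart.

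The 2 families moved in different directions. Of the 39 gst genes with an adjusted p, 5 rose (12.8%) and 13 fell (33.3%) in eggd-1 animals at an adjusted p under 0.05, whereas of the 64 ugt genes 20 rose (31.25%) and 7 fell (10.9%). Over all rows with an adjusted p, 18.6% rose and 20.4% fell, so the share of risen ugt genes and the share of fallen gst genes were above those backgrounds. The median log2 fold change was −0.44 over the gst genes, 0.40 over the ugt genes and −0.02 over all 25765 rows tested. Changes of at least 4-fold that passed were upward in both families, 2 among gst genes (5.13%) and 5 among ugt genes (7.81%). These shares were near the background of 5.67% upward, and only 0.763% of all rows fell by as much. No member fell 4-fold or more and passed, either with DESeq2, with edgeR, or at an unadjusted p under 0.05.

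**Figure D1:**
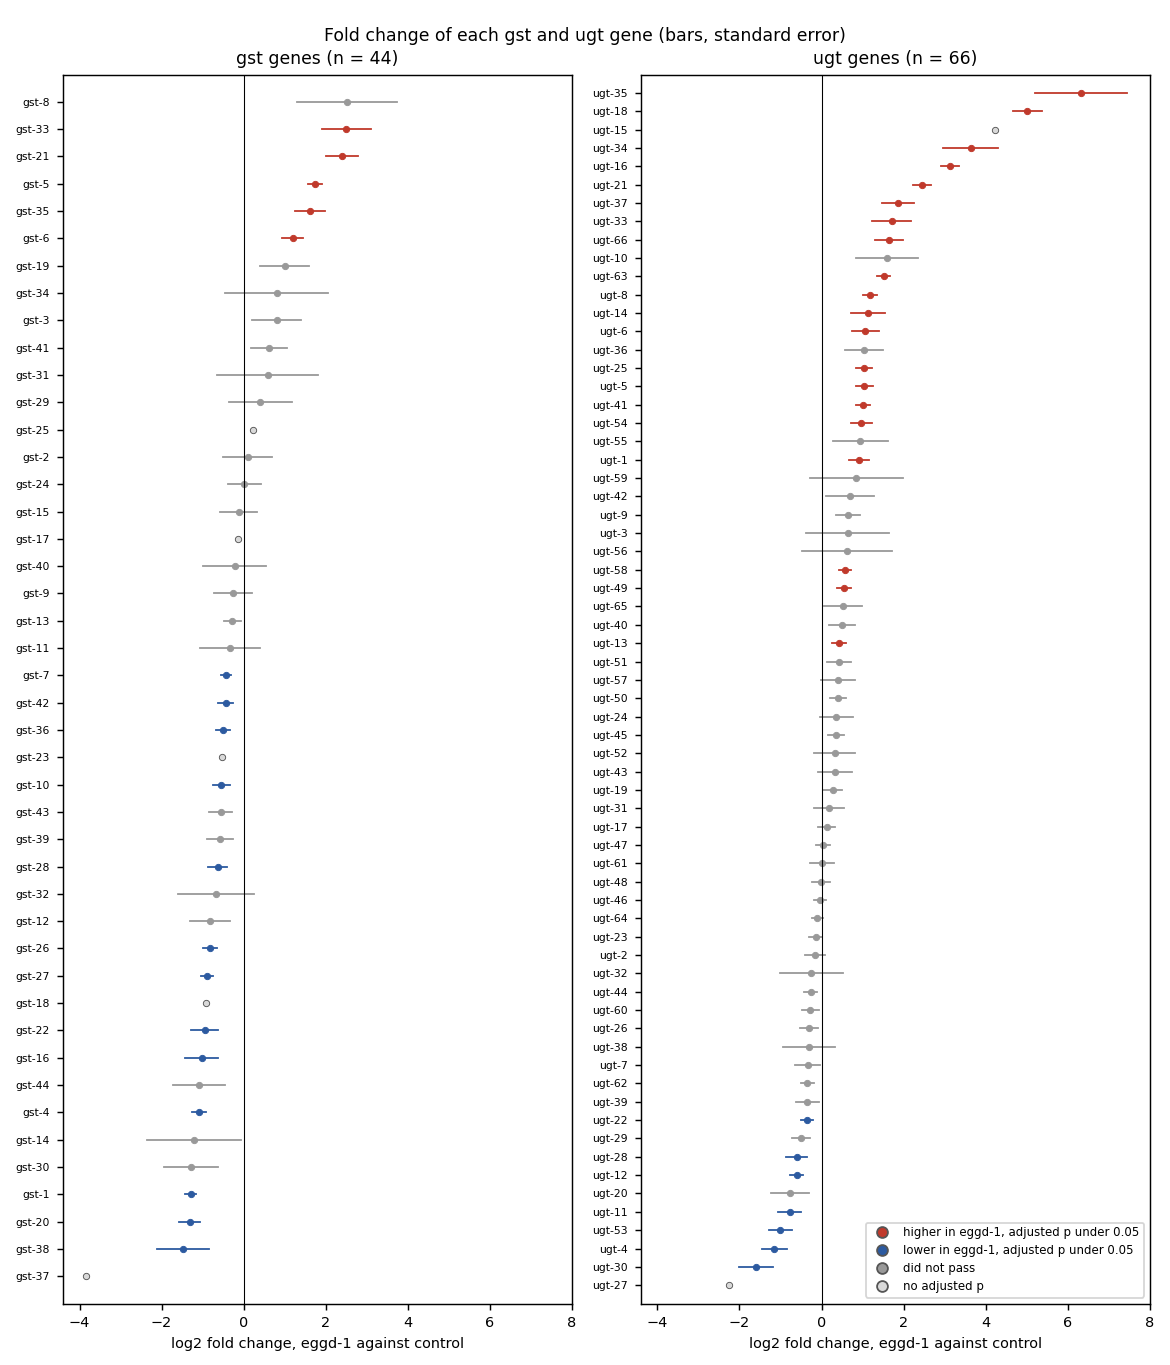
Log2 fold change of eggd-1 against control on the x axis for each of the 44 gst genes (left) and 66 ugt genes (right), ordered by fold change. Points are DESeq2 estimates from 2 libraries per group, bars are standard errors (omitted for members with no adjusted p), and colours give the call. The highest point is that of ugt-35, at 6.33, and 13 gst genes are blue against 7 ugt genes.

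Exon length moved with this contrast. The gst genes are short, with a median exon length of 736.5 bases (range 594 to 1203), and the ugt genes are longer, with a median of 1707.5 bases (range 1542 to 2909). Across protein-coding genes whose normalized counts averaged 10 or more, the median log2 fold change rose with exon length from 600 bases up. It was −0.36 over 1905 genes of 600 to 900 bases and 0.05 over 2547 genes of 1500 to 2000 bases. Over 381 genes longer than 5000 bases it was 0.30. Among shorter genes there was no such rise, with −0.29 over 497 genes up to 400 bases and −0.43 over 1011 genes of 400 to 600 bases. Among coding genes of 600 to 900 bases averaging 10 or more, 13% rose and 37.7% fell. Of the 35 gst genes of that length with an adjusted p, 11.4% rose and 34.3% fell. The share of gst genes that fell was thus near that of these coding genes. Among coding genes of 1500 to 2000 bases averaging 10 or more, 20.3% rose and 17% fell. Of the 59 ugt genes of that length with an adjusted p, 33.9% rose and 10.2% fell. The member shares also count genes averaging under 10. Of these lengths, 30 gst and 56 ugt genes averaged 10 or more.

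For short genes this dependence on length was seen in all 4 libraries, as deviations from each gene's own mean over those libraries. At 600 to 900 bases the median deviation was 0.21 and 0.16 log2 units in the control libraries and −0.15 and −0.20 in the eggd-1 libraries. At 3000 to 5000 bases it was −0.22 and −0.06 in control replicates 1 and 2, which thus differed. In the eggd-1 libraries it was 0.10 and 0.17 there. With offsets that level this trend, chosen after seeing the data, 5 gst genes rose and 5 fell (12.8% each), and 19 ugt genes rose (29.7%) and 9 fell (14.1%). Over all rows with these offsets 17.6% rose and 18.9% fell, so the share of gst genes that fell was then below the background, and the share of ugt genes that rose was above it. The 5 risen gst genes and the 19 risen ugt genes were all among those called without the offsets. The median became −0.17 over gst genes and 0.29 over ugt genes, against 0.10 over all rows. Both family medians are to be read against that last value. The part that length plays in the contrast was not otherwise tested.

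**Figure D2:**
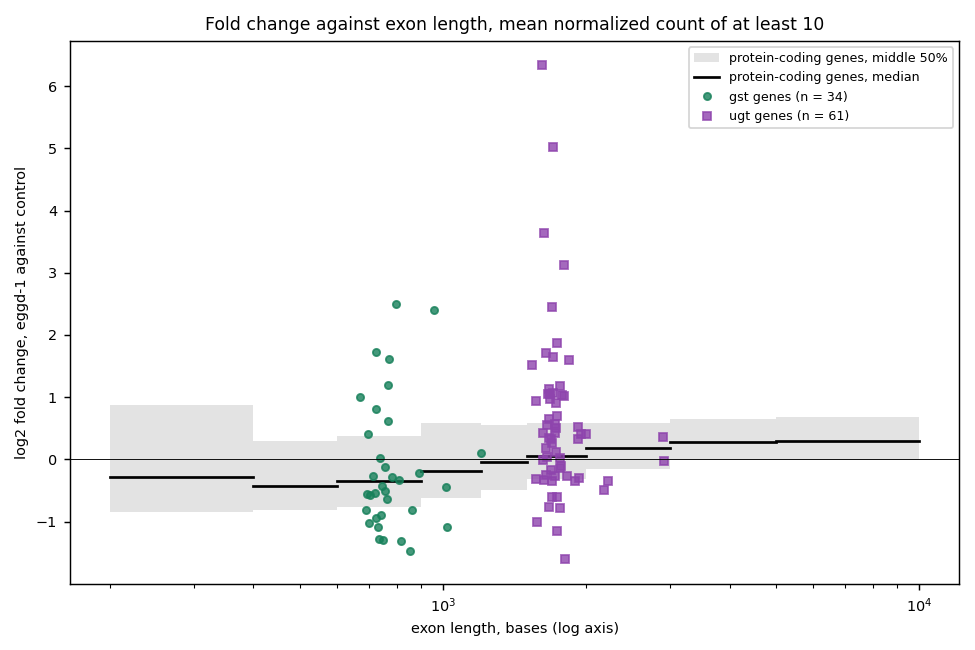
Log2 fold change of eggd-1 against control (y axis) against exon length in bases (x axis, log scale) for the 34 gst and 61 ugt genes whose normalized counts averaged 10 or more. Black lines and grey boxes give the median and the middle 50% of protein-coding genes with such counts in each length range. The black line climbs from −0.36 at the length of most gst genes to 0.05 at the length of most ugt genes.

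Among the gst genes that rose, gst-5 was the most abundant. Its protein is known to act on aldehydes from lipid peroxidation. Its normalized counts were 517 and 407 in the control and 1438 and 1622 in eggd-1 libraries, a 3.31-fold difference (log2 fold change 1.73, SE 0.17, adjusted p = 2.93e-23). In the control gst-5 (II:10950352-10951603, plus strand) was the seventh gst gene per kilobase, at 637 normalized counts per kilobase. In eggd-1 animals it was at 2111 ± 179, close to gst-1 at 2038.5 ± 159 (SD, n = 2).

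The other 4 risen gst genes started from low levels. gst-33 had 7.09 and 10.7 normalized counts in the control and 60.8 and 41.6 in eggd-1 libraries (log2 fold change 2.50, SE 0.60, adjusted p = 0.000189). Its groups did not overlap, but without eggd-1 replicate 1 the adjusted p was 0.105. gst-21 had 25.3 and 20.0 against 115 and 121 (2.39, SE 0.39, adjusted p = 1.86e-08). gst-35, at the end of a tandem group on chromosome II, had 41.5 and 31.4 against 107 and 113.8 (1.61, SE 0.37, adjusted p = 9.24e-05). gst-6 had 110 and 90.0 against 220 and 236 (1.19, SE 0.26, adjusted p = 3.54e-05). The rule that named these 4 genes took only members whose groups did not overlap. Over all rows with an adjusted p, both eggd-1 libraries lay above both control libraries in 38.5%.

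The gst genes that fell included the most abundant members. gst-1, the highest gst gene in control animals at 4986 ± 175 normalized counts per kilobase (SD, n = 2), had 3827 and 3642 normalized counts in the control and 1443 and 1611 in eggd-1 libraries. Its RNA was 0.409 of the control level (log2 fold change −1.29, SE 0.13, adjusted p = 1.24e-20). Both eggd-1 libraries lay below both control libraries, as in 38.9% of all rows with an adjusted p. gst-7, second in the control at 3513 normalized counts per kilobase, had 2584 and 2650 against 1987 and 1890 (−0.43, SE 0.13, adjusted p = 0.00315). The gst-7 call was lost without eggd-1 replicate 1 (adjusted p = 0.120), without eggd-1 replicate 2 (0.196) and with the length offsets (0.414).

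gst-4, whose promoter is widely used as a reporter of oxidative stress and SKN-1 activity, fell. It had 617 and 592 normalized counts in the control and 279 and 289 in eggd-1 libraries (log2 fold change −1.09, SE 0.18, adjusted p = 2.58e-08). Its counts include fractions of reads that map to several places. gst-27 had 999 and 1018 against 523 and 565 (−0.89, SE 0.16, adjusted p = 1.47e-07), and gst-20 had 318 and 245 against 120 and 105 (−1.31, SE 0.26, adjusted p = 2.77e-06). In both genes the 2 eggd-1 libraries lay below both control libraries, as in 38.9% of all rows with an adjusted p.

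Other falls lost their call more often. gst-36 had 762 and 662 normalized counts in the control and 505 and 500 in eggd-1 libraries (log2 fold change −0.50, SE 0.17, adjusted p = 0.00997). Its call was lost without control replicate 1 (adjusted p = 0.131), without eggd-1 replicate 1 (0.179), without eggd-1 replicate 2 (0.190) and with the length offsets (0.339). gst-38 had 37.5 and 33.6 against 14.4 and 11.01 (−1.48, SE 0.63, adjusted p = 0.0469), and its adjusted p was between 0.192 and 0.311 whichever library was left out, 0.123 with the length offsets and 0.0550 with size factors from the library totals.

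The other 6 fallen gst genes had log2 fold changes between −1.02 (gst-16) and −0.44 (gst-42), and gst-42 encodes the maleylacetoacetate isomerase of tyrosine breakdown. Of these, gst-26 fell by 0.82 on the log2 scale and passed whichever library was left out. gst-10, gst-16, gst-22, gst-28 and gst-42 did not pass when any single library was left out. With the length offsets the 5 gst genes that fell were gst-1, gst-4, gst-20, gst-26 and gst-27. Leaving out a library also lowered the number of gst genes that fell from 13 to 6 without control replicate 1, 7 without control replicate 2, 5 without eggd-1 replicate 1 and 5 without eggd-1 replicate 2, in fits with fewer samples. Without eggd-1 replicate 1 the number of 4-fold risen gst genes was 1 in place of 2.

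A further 21 gst genes did not pass, with log2 fold changes from −1.28 (gst-30) to 2.52 (gst-8). For gst-8 the counts were 2 and 3 in the control and 16 and 5 in eggd-1 libraries, a ratio of 5.82 (95% counting interval 2.14 to 19.8) with an adjusted p of 0.0884. The 5 gst genes with no adjusted p had few counts, such as gst-37 with 4 and 3 in the control and 0 and 0 in eggd-1 libraries. At this depth, up to 3 counts can be present where 0 were seen. In summed normalized counts, gst genes had 12776 and 12218 in the control and 8821 and 9165 in eggd-1 libraries. The 5 most abundant members held 69.4% of the control sum, so the sum follows mainly gst-1 and gst-7.

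The largest differences of either family lay among ugt genes that were almost silent in control animals. ugt-35 had 2 and 0 counts in the control and 56 and 62 in eggd-1 libraries, a ratio of 81.8 with a 95% counting interval of 22.1 to 683 (adjusted p = 2.20e-07). The call was lost without eggd-1 replicate 1 (adjusted p = 0.121) and without eggd-1 replicate 2 (0.139), where the mutant group held 1 library and its spread was taken from the control libraries. ugt-34, its neighbour on the same strand, had 3.04 and 5.72 normalized counts in the control and 60.8 and 51.4 in eggd-1 libraries (log2 fold change 3.63, SE 0.67, adjusted p = 7.08e-07). The rule that named both genes among the highest took only members whose groups did not overlap, and ugt-34 has fractional counts.

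ugt-18 had 19.2 and 9.29 normalized counts in the control and 499 and 387 in eggd-1 libraries, a 31.1-fold difference (log2 fold change 5.02, SE 0.35, adjusted p = 8.96e-45). ugt-16, which lies next to it, had 206 and 113 against 1312 and 1452, an 8.65-fold difference (3.13, SE 0.22, adjusted p = 7.28e-43). Both passed whichever library was left out. By normalized count ugt-16 was among the 5 most abundant ugt genes of eggd-1 animals. Per kilobase its level was 770 normalized counts against 88.97 in the control.

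ugt-21, which stands alone on chromosome IV (9500311 to 9502574, plus strand), had 122 and 92.2 normalized counts in the control and 515 and 651 in eggd-1 libraries (log2 fold change 2.45, SE 0.23, adjusted p = 1.88e-25). ugt-37 had 36.4 and 24.3 against 105 and 115 (1.87, SE 0.39, adjusted p = 1.22e-05). With a library left out, the log2 fold change lay between 2.23 and 2.65 for ugt-21 and between 1.58 and 2.17 for ugt-37. The rule that named both among the highest took only members whose groups did not overlap. Over all rows with an adjusted p, both eggd-1 libraries lay above both control libraries in 38.5%.

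The other 14 ugt genes that rose had log2 fold changes between 0.43 (ugt-13) and 1.71 (ugt-33). Among them ugt-63 was one of the more abundant, with 398 and 451 normalized counts in the control and 1158 and 1268 in eggd-1 libraries (1.51, SE 0.16, adjusted p = 1.86e-19). ugt-58, among the 5 most abundant, rose by less, from 1266 and 1104 to 1731 and 1793 (0.57, SE 0.14, adjusted p = 0.000325), and its adjusted p was 0.0624 without eggd-1 replicate 1 and 0.0817 without eggd-1 replicate 2. Of the 20 ugt genes that rose, 11 passed whichever library was left out, and the number that rose was 13 without eggd-1 replicate 1 and 11 without eggd-1 replicate 2.

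**Figure D3:**
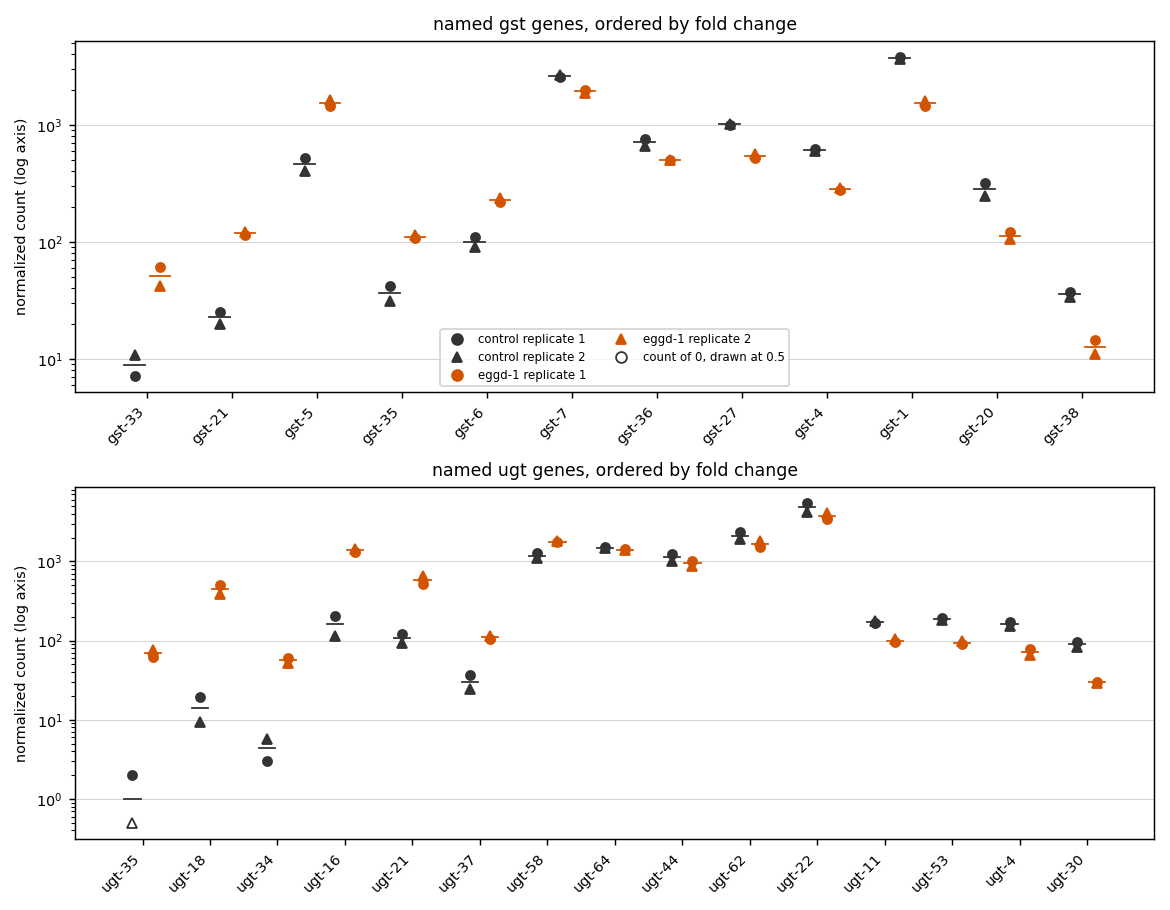
Normalized count (y axis, log scale) of the gst genes (top) and ugt genes (bottom) named by rule, in each library. Circles and triangles are replicates 1 and 2, grey for control and orange for eggd-1, and short lines are group means. The control points of ugt-35, ugt-18 and ugt-34 lie under 20 normalized counts while their eggd-1 points lie above 50.

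Of the 5 most abundant ugt genes, ugt-58 rose as given above, ugt-22 fell at the edge of the threshold and 3 did not pass. ugt-22, the highest at 2177 ± 369 normalized counts per kilobase in the control (SD, n = 2), had 5413 and 4254 normalized counts in the control and 3447 and 4107 in eggd-1 libraries. Its log2 fold change of −0.36 (SE 0.15) stood at the threshold (adjusted p = 0.0498), and its counts are fractional. The adjusted p of ugt-22 was 0.313 without control replicate 1, 0.520 without eggd-1 replicate 1 and 0.124 without eggd-1 replicate 2, and 0.0594 with size factors from the library totals.

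ugt-62, second in level, had 2326 and 1893 normalized counts in the control and 1500 and 1825 in eggd-1 libraries (log2 fold change −0.34, SE 0.16, adjusted p = 0.0689). It passed without control replicate 2 (adjusted p = 0.00762), with edgeR (0.0285) and with the length offsets (0.0262). ugt-64 had 1508 and 1484 against 1414 and 1379 (−0.10, SE 0.14, adjusted p = 0.601), and ugt-44 had 1248 and 1014 against 1011 and 872 (−0.26, SE 0.16, adjusted p = 0.199). The 5 most abundant ugt genes held 47.2% of the control sum and 37.4% of the eggd-1 sum, counting in each group its own top 5.

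Of the 7 ugt genes that fell, ugt-30 changed most, from 96.2 and 83.6 normalized counts to 29.8 and 29.4 (log2 fold change −1.60, SE 0.41, adjusted p = 0.000539). ugt-4 fell from 170 and 152 to 78.4 and 66.1 (−1.15, SE 0.30, adjusted p = 0.000670), ugt-53 from 191 and 184 to 89.5 and 97.9 (−1.001, SE 0.27, adjusted p = 0.00120), and ugt-11 from 166 and 176 to 95.0 and 105 (−0.77, SE 0.28, adjusted p = 0.0162). Naming by rule took only falls with both eggd-1 libraries below both control libraries, as in 38.9% of all rows with an adjusted p.

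None of these falls passed with each library left out. Without control replicate 1 the adjusted p was 0.0679 for ugt-30, 0.0613 for ugt-4, 0.0566 for ugt-53 and 0.119 for ugt-11. Without eggd-1 replicate 2 it was 0.0752 for ugt-4, without eggd-1 replicate 1 it was 0.0904 for ugt-53, and for ugt-11 no fit of this kind passed (0.119 to 0.238). The other falls were those of ugt-12 and ugt-28, both by 0.61 on the log2 scale. The number of ugt genes that fell was 1 without control replicate 1 and 2 without either eggd-1 library, against 7 with all libraries.

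Summed over the ugt genes, normalized counts were 24609 and 21001 in the control and 25525 and 27825 in eggd-1 libraries, so both eggd-1 sums lay above both control sums, though eggd-1 replicate 1 exceeded control replicate 1 by less than the 2 control libraries differed. The 37 ugt genes that did not pass had log2 fold changes from −0.76 (ugt-20) to 1.60 (ugt-10). Both eggd-1 libraries lay above both control libraries for 32 of the 64 ugt genes with an adjusted p and below for 15, and for 12 and 23 of the 39 gst genes. Over all rows the shares were 38.5% above and 38.9% below.

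Many members sit in tandem. With a gap of at most 10000 bases between neighbours, 25 gst genes fell into 4 groups and 36 ugt genes into 11 groups, and genes of one group moved in different directions in 2 of the 4 gst groups and 3 of the 11 ugt groups. Neighbours of similar sequence can share reads, so single values within a group are less certain where counts are fractional. Fractional counts occurred in 5 gst genes, all of which fell, and in 13 ugt genes, of which 3 rose and 3 fell.

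The group of ugt-18, ugt-16 and ugt-15 (V:12820260-12830114, plus strand, WBcel235) held 2 of the 5 ugt genes that rose 4-fold. The last gene of the group, ugt-15, had 1 and 0 counts in the control and 7 and 7 in eggd-1 libraries, a ratio of 19.4 (95% counting interval 2.95 to 820), and too few counts for an adjusted p. The coding genes on either side, ZC443.4 and C44H9.4, had log2 fold changes of 0.47 (SE 0.28, adjusted p = 0.170) and 0.39 (SE 0.25, adjusted p = 0.200). Further out, ZC443.1 (0.83, SE 0.28, adjusted p = 0.0120) and C44H9.6 (1.13, SE 0.27, adjusted p = 0.000251) rose, by less than ugt-18 and ugt-16.

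The pair ugt-35 and ugt-34 (V:10651995-10656978, minus strand) held another 2 of the 5. On one side aqp-6, an aquaporin gene, had a log2 fold change of 0.45 (SE 0.82, adjusted p = 0.709), and on the other tut-2 fell by 0.60 (SE 0.18, adjusted p = 0.00330). Beyond these, kvs-2 rose (1.10, SE 0.47, adjusted p = 0.0487) and sqv-4 fell.

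Of the other ugt groups, 3 held genes that rose and genes that fell, 2 held only rises (ugt-37 and ugt-41 in one, ugt-1 in the other) and 4 held no gene that passed. In ugt-5, ugt-4, ugt-6 and ugt-3, in that order on chromosome V, ugt-5 (log2 fold change 1.04, adjusted p = 3.38e-06) and ugt-6 (1.06, adjusted p = 0.00448) rose and ugt-4 between them fell (−1.15). In the 7-gene group that starts with ugt-12, ugt-12 and ugt-11 fell, ugt-8 (1.18, adjusted p = 7.61e-10), ugt-14 (1.13, adjusted p = 0.0215) and ugt-13 (0.43, adjusted p = 0.0292) rose, and ugt-9 and ugt-10 did not pass. The gene ugt-67 lies in this group, but the deposited table lists it under a sequence name, so it was no member. Its log2 fold change was 2.34 (SE 0.63, adjusted p = 0.000928).

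Among gst groups, gst-6 rose while its neighbour gst-7 fell, and gst-26, gst-27 and gst-28 fell while gst-35, at the other end of the same group of 9 (II:15163817-15185389), rose. In the group of 9 that starts with gst-20 (II:13608154-13630887), gst-20 and gst-16 fell and none rose. In the group of gst-3, gst-2 and gst-4, gst-4 was the 1 gene that passed.

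**Figure D4:**
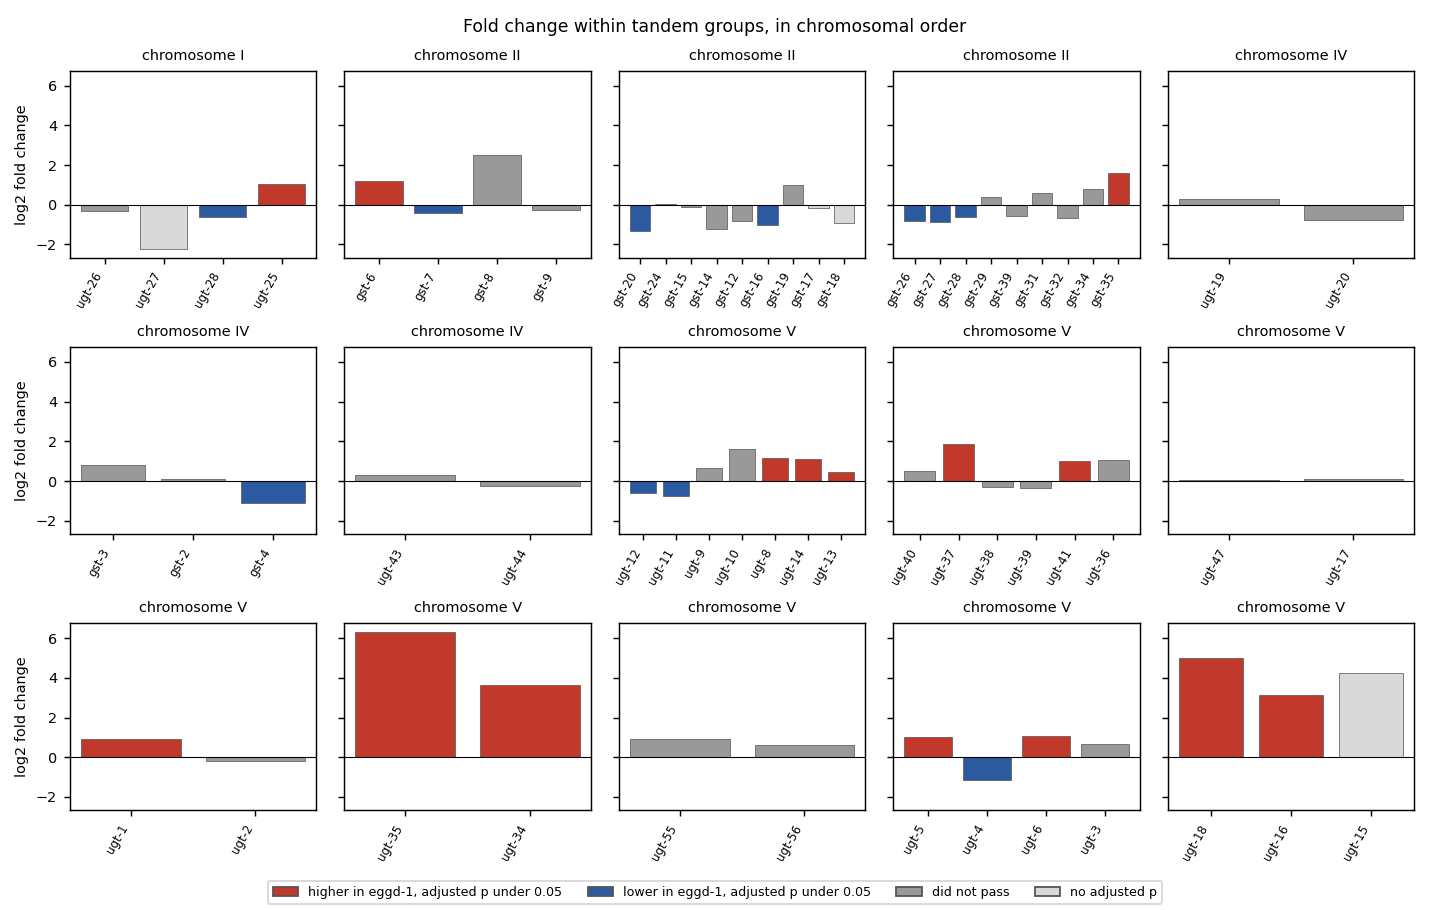
Log2 fold change of eggd-1 against control (bars, y axis) for the members of each of the 15 tandem groups, in chromosomal order along the x axis, 1 panel per group. Colours give the call, and the pale bar of ugt-15 has no adjusted p. The groups of ugt-35 and ugt-18 hold only upward bars, between 3.13 and 6.33, while the group of ugt-5 has a downward bar between 2 upward ones.

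By position, 41 of the 66 ugt genes lie on chromosome V. Of the 40 with an adjusted p, 15 rose (37.5%) and 5 fell (12.5%), against 19.7% and 17.5% of all rows of that chromosome. On chromosome II lie 25 of the 44 gst genes. Of the 23 with an adjusted p, 3 rose and 6 fell (26.1%), and the share that fell was near the 23% of all rows of that chromosome. The deposited table also marks gene classes of the germ line and of small RNA pathways. Most members have no such class, 36 gst genes and 58 ugt genes. Of the 5 gst genes in the spermatogenic class gst-5 rose and 3 fell, and of the 4 such ugt genes 2 rose and none fell. Over all rows 18.6% rose and 20.4% fell. The shares for all genes of that class are not given here, so these few members cannot be set against their class.

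The rest of the pathway was described with gene lists. Of 22 genes of glutathione synthesis and redox, none rose and 11 fell, with a median log2 fold change of −0.40. They included the glutathione synthetase gss-1, with 2589 and 1940 normalized counts in the control and 1268 and 1423 in eggd-1 libraries (−0.75, SE 0.16), the peroxiredoxin prdx-2, with 11940 and 11805 against 7779 and 8255 (−0.57, SE 0.12), and the glutaredoxin glrx-21 (−0.88, SE 0.20). These genes are short too, with a median exon length of 797 bases. Of all coding genes of 600 to 900 bases 13% rose and 37.7% fell. With the length offsets 1 gene of the list rose and 4 fell, against 17.6% and 18.9% of all rows. Glutathione transferases of other classes numbered 5, and gsto-1, an omega-class enzyme, was the 1 that passed, with 80.0 and 102 against 181 and 155 (0.88, SE 0.29, adjusted p = 0.00809).

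Of 9 genes that make, carry or use UDP-sugars, 4 fell (44.4%) and 1 rose (11.1%), against 20.4% and 18.6% of all rows. The UDP-glucose dehydrogenase gene sqv-4, which makes UDP-glucuronic acid, had 4872 and 4644 normalized counts in the control and 3385 and 3504 in eggd-1 libraries (log2 fold change −0.47, SE 0.12, adjusted p = 0.000732). The UDP-galactose epimerase gene gale-1 (−0.92, SE 0.14), the glucuronyltransferase gene sqv-8 (−0.72, SE 0.15) and the UDP-sugar transporter gene sqv-7 (−0.54, SE 0.14) fell as well, and the nucleotide sugar transporter gene nstp-2 rose (0.34, SE 0.14, adjusted p = 0.0366). With the length offsets 5 fell and 1 rose, against 18.9% and 17.6% of all rows.

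Of 23 drug efflux transporters, 7 rose (30.4%) and 1 fell (4.35%), against 18.6% and 20.4% of all rows. The P-glycoprotein gene pgp-1, whose product sits in the apical membrane of the intestine, had 765 and 705 normalized counts in the control and 3987 and 4699 in eggd-1 libraries (log2 fold change 2.56, SE 0.14). pgp-14 (1.60, SE 0.13), pgp-9 (1.26, SE 0.17), pgp-3 (1.03, SE 0.18) and mrp-4 (0.72, SE 0.15) rose, and pgp-8 fell from 71.9 and 59.3 to 17.7 and 23.2 (−1.68, SE 0.49, adjusted p = 0.00232). These genes are long, with a median exon length of 4284 bases. Of all coding genes of 3000 to 5000 bases 36.2% rose and 5.38% fell. With the length offsets 5 transporters rose and 3 fell, against 17.6% and 18.9% of all rows. The median of the transporters was then −0.04, against 0.10 over all rows.

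Of 26 regulators of detoxification genes, 8 rose (30.8%) and 2 fell (7.69%), against 18.6% and 20.4% of all rows. skn-1 had 3115 and 4258 normalized counts in the control and 4598 and 4920 in eggd-1 libraries (log2 fold change 0.37, SE 0.16, adjusted p = 0.0472). The nuclear receptor genes nhr-114 (1.04, SE 0.15) and daf-12 (0.92, SE 0.17), the hypoxia factor gene hif-1 (0.63, SE 0.14) and the Mediator subunit gene mdt-15 (0.46, SE 0.13) also rose, and pha-4 and cep-1 fell. The regulators have a median exon length of 2093.5 bases. Of coding genes of 2000 to 3000 bases averaging 10 or more normalized counts, 26.1% rose and 11% fell. With the length offsets 3 regulators rose and 4 fell, against 17.6% and 18.9% of all rows.

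Tissue markers were listed in the same way. Of 19 intestine markers 9 rose and 2 fell, with a median log2 fold change of 0.29 and sums of 94903 and 111795 normalized counts in the control and 127568 and 132315 in eggd-1 libraries. Of 20 hypodermis markers 9 rose and 1 fell, of 16 body wall muscle markers 9 and 1, of 16 neuron markers 8 and 1, of 20 oocyte and germ line markers 6 and 2, and of the 19 spermatogenesis markers with an adjusted p 15 and none. These counts stand beside the 18.6% that rose and 20.4% that fell over all rows. The oocyte and germ line markers have a median exon length of 2022 bases. Of coding genes of 2000 to 3000 bases averaging 10 or more normalized counts, 26.1% rose and 11% fell. Over all rows with the length offsets 17.6% rose and 18.9% fell, with a median of 0.10. With these offsets 6 intestine markers rose and 2 fell, with a median of 0.08. Of the oocyte and germ line markers 3 rose and 3 fell. The counts with offsets were 10 and 2 for hypodermis, 7 and 0 for muscle, 6 and 0 for neurons and 16 and 0 for spermatogenesis. No listed marker was at 0 in every library. The part of tissue composition in the gst and ugt results was not tested.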

How the data were processed

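Whole adult animals were profiled by directional total RNA sequencing, with 2 control and 2 eggd-1 libraries, grouped by title. The authors depleted ribosomal RNA with RNase H, trimmed reads with TrimGalore, aligned them to WormBase WS279 with STAR, removed unpaired reads with SAMtools and counted genes by strand with featureCounts, dividing reads that map to several places. Salmon counts of transposons were added, so the deposited values are expected counts, not normalized and in 12.8% of rows with a count not whole. Tool versions are not given in the sources used here. A further 7 columns of the series table match no sample and were not used.

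Expected counts were rounded. The main test, over rows with at least 1 count after rounding, was the two-sided Wald test of DESeq2 1.42.0 (R 4.3.3) without shrinkage, with its default size factors, independent filtering at 0.05 and Benjamini-Hochberg adjustment over all rows. DESeq2 is the tool the study used. A gene passed at an adjusted p-value under 0.05, and an adjusted p left as NA stayed NA. Standard errors and p-values rest on 2 libraries per group and on the dispersion shared across genes. Alternatives were edgeR 4.0.16 (quasi-likelihood), other size factors, a filter of 10 counts in 2 libraries, rows with fractional counts left out, a replicate block, each library left out, and, added after seeing the data, lowess offsets on exon length. The tests were checked on simulated data. Levels per kilobase are normalized counts divided by exon length. The 95% counting intervals are exact conditional intervals and reflect counting error alone, as does the limit of 3 counts.

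Positions and exon lengths came from the Ensembl annotation of WBcel235 by gene identifier. Named by rule were, per family, the 6 highest and 4 lowest log2 fold changes among members that passed, whose normalized counts averaged 20 or more and whose groups did not overlap, the 5 with the highest mean normalized count, every member that passed with at least a 4-fold change, and gst-4. Other members were named to account for those that passed, and low-count members and flanking genes after their values were seen. The members and gene lists were chosen with earlier results of these data known. No sequence was used here.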

Additional observations from a re-analysis of the deposited data

How the results depend on the processing

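Of 292 values of the 27 genes named by rule under the alternatives, 254 kept direction and side of the threshold, 35 kept direction but no longer passed, 3 passed only under the alternative and 0 turned direction. With edgeR 9 gst genes rose in place of 5, and all DESeq2 calls of members were shared with it (5 of 9 and 13 of 18 edgeR calls among gst genes, 20 of 27 and 7 of 10 among ugt genes). Except for the length offsets, the shares of all rows called under the alternatives are not given here. Counts of members under those settings thus cannot be set against a background. With rows of fractional counts left out, 8 gst genes and 4 ugt genes fell in place of 13 and 7, since fewer members were tested, and the gst median was −0.28. With the count filter the gst median was −0.45. The added exon length offsets gave 5 fallen gst genes, a gst median of −0.17 and a ugt median of 0.29, and moved the median of all rows from −0.02 to 0.10. With a library left out, 5 to 7 gst genes fell, 1 to 2 rose 4-fold, and the gst median lay between −0.48 and −0.32. Likewise 11 to 17 ugt genes rose, 1 to 7 fell, and the ugt median lay between 0.34 and 0.42. With the replicate number as a block 8 gst genes and 4 ugt genes fell, and of the genes named by rule gst-38 (adjusted p = 0.105), ugt-22 (0.112) and ugt-11 (0.0551) did not pass. The deviations of same-numbered libraries had a correlation of −0.0434, so the numbers give no pairing. With 2 libraries per group and few control counts in ugt-35, ugt-34 and ugt-18, the size of their differences is poorly fixed.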
